A study of Sus scrofa with 7 samples.

Results

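Nodal and activin are secreted ligands of the TGFβ superfamily. They bring together a type II receptor and a type I receptor on the cell surface, and the type I kinase then phosphorylates SMAD2 and SMAD3, which enter the nucleus with SMAD4. Nodal, unlike activin, also needs a co-receptor of the Cripto family, and secreted proteins such as Lefty and follistatin hold the ligands in check. In early mammalian embryos this pathway acts in the epiblast and in the extra-embryonic endoderm, where it takes part in the patterning of the embryo.

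The genes described here are 10 components of this pathway, taken by name: the ligand genes NODAL, INHBA and INHBB, the co-receptor gene TDGF1, the type I receptor genes ACVR1B and ACVR1C, the type II receptor genes ACVR2 (the name that the files give to ACVR2A) and ACVR2B, and the secreted inhibitor genes LEFTY2 and FST. Of the 29510 genes listed, 8 carried one of these names. NODAL and INHBB had no entry under their names and were not analysed here. Of the 8 genes, 6 passed the filter on low counts and were tested, while INHBA and LEFTY2 did not pass it.

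RNA was sequenced from 3 lines of porcine extra-embryonic endoderm (pXEN) cells, 2 lines of porcine naïve-like embryonic stem cells (nESCs) and 2 lines of porcine primed embryonic stem cells (pESCs), with 1 library per line. The pXEN lines came from the inner cell masses of parthenogenetic blastocysts and were at passages 26, 26 and 23. They grew on mouse embryonic fibroblasts with LIF, the GSK3 inhibitor CHIR99021, dimethindene maleate, minocycline and the ROCK inhibitor Y27632, in serum and serum replacement. The nESC lines, at passages 21 and 22, also came from inner cell masses. They grew on mouse embryonic fibroblasts with FGF, LIF, the MEK inhibitor PD0325901, CHIR99021, doxycycline and SB431542, which inhibits the kinases ACVR1B, ACVR1C and TGFBR1. The pESC lines, both at passage 20, are labelled as converted from naïve-like ESCs, and they grew on mouse STO fibroblasts with activin A, bFGF, EGF and LIF. LIF was therefore present in all 3 media, the nESC medium blocked the type I receptors described here, and the pESC medium supplied a ligand of the pathway. Cell type and medium changed together in every comparison, and the feeder cells changed with them between the pESCs and the other types, so their parts in a difference cannot be told apart.

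The libraries held 10408164 to 12995720 counts, and 3 counts, taken as the floor of detection, were 0.231 to 0.288 CPM (counts scaled to the library total). The pXEN lines were high in the extra-embryonic endoderm genes GATA4, with 188 to 239 FPKM, and SOX17, with 263 to 334 FPKM, and each of these was below 1 FPKM in all 4 ESC libraries, as were FOXA2, HNF4A and PDGFRA. GATA6 of the same list had 49.2 to 96.6 FPKM in the pXEN lines but also 12.1 FPKM in both nESC lines and 8.08 and 9.84 in the pESC lines. SOX7, another marker of this lineage, did not exceed 0.0976 FPKM in the pXEN lines. SOX2 had 102 to 154 FPKM in the ESC lines, but POU5F1, which defines pluripotent cells, did not exceed 0.284 FPKM in any library. Its entry overlaps another gene with 1855 counts, and reads shared by overlapping genes could be lost, so these counts do not show that the ESC lines lack it. NANOG had 4.50 to 15.5 FPKM in the pXEN lines and at most 1.43 FPKM in the ESC lines. Its entry at chr1:187711367-187712525, with a length of 1159 bases, holds no intron. The study reported pXEN cells as negative for Nanog by staining, real-time PCR and blotting, and the cause of this difference was not tested. Of the 3 other pluripotency markers, UTF1 had 136 and 142 FPKM in the pESC lines and at most 0.0803 in the nESC lines, ESRRB had 36.6 and 37.7 FPKM in the pESC lines and 1.18 and 0.801 in the nESC lines, and PRDM14 did not exceed 0.0461 FPKM in any library. SOX2 was thus the only marker of this list above 2 FPKM in the nESC lines. The pXEN line 2 library stood apart. The 9 fibroblast markers that were found summed to 502 CPM there, against 12.9 and 31.9 in pXEN lines 1 and 3, 85.3 and 110 in the nESC lines, and 200 and 260 in the pESC lines. Most of the sum in line 2 was COL3A1, with 4251 of 6333 counts, while DCN, FBN1, PDGFRB and TWIST1 were higher in both pESC lines than in line 2. That library also held the only SOX2 reads of the pXEN lines and 38 reads on chromosome Y, against at most 11 elsewhere, and the values of the 6 tested genes below are therefore also given without it where a call changes.

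The ligand gene INHBA and the inhibitor gene LEFTY2 had at most 3 counts, the floor of detection, in 6 of the 7 libraries. The receptor and inhibitor genes ACVR1B, ACVR2, ACVR2B and FST were read in all 7 libraries, while TDGF1 had no count in either nESC line and ACVR1C had none in any pXEN line. The pXEN cells thus had TDGF1 without ACVR1C, the nESCs had ACVR1C without TDGF1, and the pESCs had much TDGF1 and little ACVR1C. In these bulk libraries, fewer cells with a transcript and less transcript per cell cannot be told apart. The values below are FPKM, fragments scaled by the authors for gene length and library, and the log2 fold changes come from edgeR's quasi-likelihood test on the counts, adjusted by Benjamini-Hochberg over the 17447 genes tested.

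**Figure D1:**
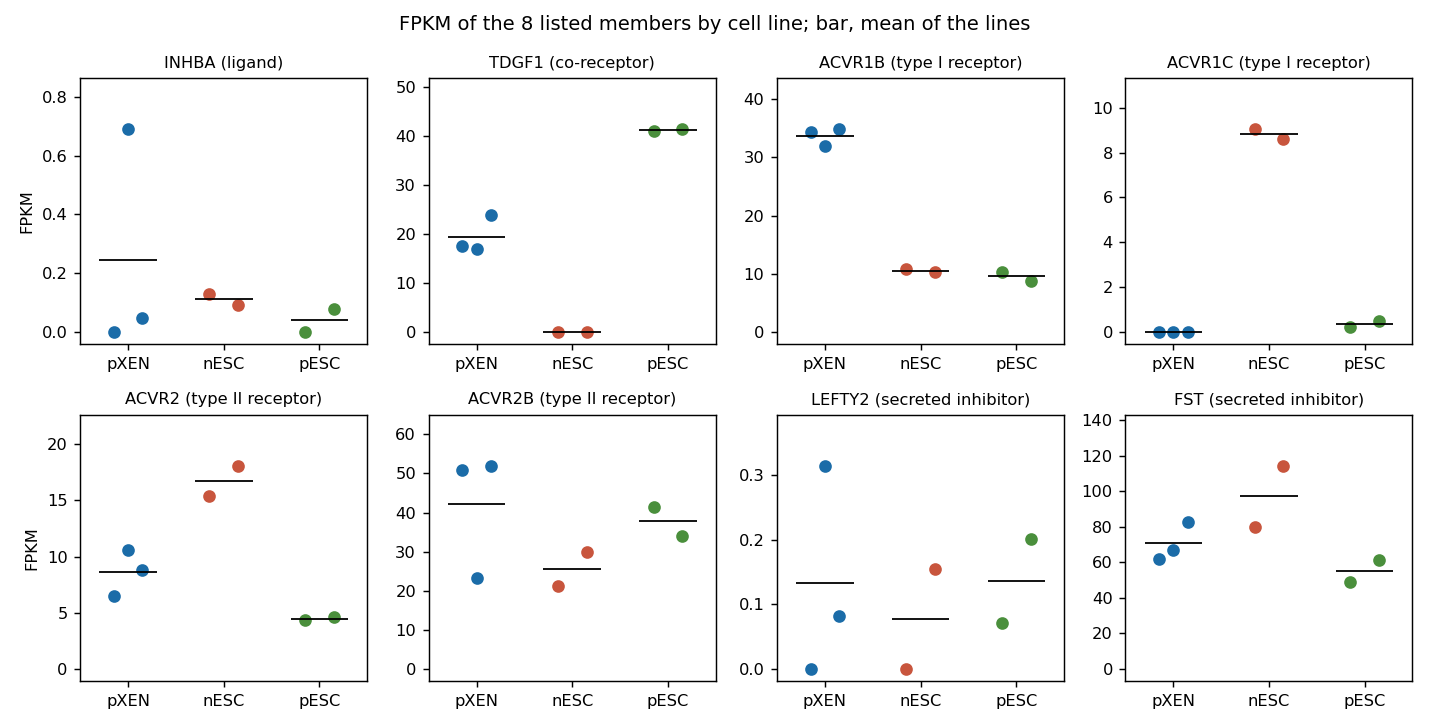
FPKM (y axis) of each of the 8 listed genes in the pXEN, nESC and pESC lines (x axis), with 1 point per line, a horizontal bar at the mean of the lines, and a separate y scale in each panel. TDGF1 is at 0 in both nESC lines, ACVR1C is at 0 in the 3 pXEN lines, and all pXEN values of ACVR1B lie above all ESC values.

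INHBA, which encodes the βA subunit of activin A, lies at chr18:57997858-58009109 in Sscrofa10.2. The counts were 0, 15 and 1 for pXEN lines 1, 2 and 3, 3 and 2 for the nESC lines, and 0 and 2 for the pESC lines. Only pXEN line 2 was above 3 counts, so INHBA transcript was not detectable above the floor outside that library. The ratio of normalised counts was 2.35 for pXEN cells over nESCs (95% counting interval 0.822 to 8.19) and 6.49 over pESCs (1.53 to 58.2). Both ratios rest on line 2, which also had the highest summed fibroblast markers, and the part of these in its INHBA reads was not tested. These intervals cover counting error only.

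TDGF1 encodes Cripto, the co-receptor through which Nodal reaches the activin receptors, and lies at chr13:32774190-32777033. Its level was 17.7, 16.9 and 23.8 FPKM for pXEN lines 1, 2 and 3, no count in either nESC line, and 41.0 and 41.4 FPKM in the pESC lines. The cell types did not overlap, and their order was pESCs, pXEN cells and nESCs. In counts, TDGF1 had 95, 106 and 143 reads in the pXEN lines and 283 and 305 in the pESC lines. Set against the floor of 3 counts per library, TDGF1 exceeded its nESC level at least 42.0-fold in pXEN cells (adjusted p = 1.6e-05) and at least 88.5-fold higher in pESCs than in nESCs (adjusted p = 3.6e-05). Between the types that had reads, TDGF1 was lower in pXEN cells than in pESCs, with a log2 fold change of −1.08 (SE 0.22, 95% interval −1.59 to −0.56, adjusted p = 0.00658). Without pESC line 2 the last difference was −1.07 with an adjusted p of 0.0533 and was no longer called.

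ACVR1B encodes ALK4, the main type I receptor of activin and Nodal, and lies at chr5:17901709-17938189. Its level was 34.3, 31.9 and 34.9 FPKM for pXEN lines 1, 2 and 3, 10.8 and 10.3 FPKM in the nESC lines, and 10.3 and 8.83 FPKM in the pESC lines. Every pXEN line was above every ESC line, and the pXEN mean was 3.19 times that of nESCs and 3.52 times that of pESCs. The means were 33.7 ± 1.57 FPKM in pXEN cells (SD, n = 3), 10.6 ± 0.371 in nESCs (SD, n = 2) and 9.57 ± 1.05 in pESCs (SD, n = 2). On the log2 scale pXEN cells were 1.67 above nESCs (SE 0.11, adjusted p = 1.4e-05) and 1.82 above pESCs (SE 0.12, adjusted p = 1.5e-05). The ESC types, whose lines overlapped, differed by −0.16 in pESCs against nESCs (95% interval −0.43 to 0.12, adjusted p = 0.364), which was not called.

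ACVR1C encodes ALK7, a type I receptor that can serve Nodal and activin B, and lies at chr15:71386273-71422517. It had no count in any of the 3 pXEN lines, 187 and 171 counts (9.05 and 8.59 FPKM) in the nESC lines, and 5 and 11 counts (0.232 and 0.479 FPKM) in the pESC lines. The 3 cell types did not overlap, and the order was nESCs, pESCs and pXEN cells. ACVR1C was at least 54.0-fold lower in pXEN cells than in nESCs (adjusted p = 7.1e-05) and at least 2.16-fold lower than in pESCs (adjusted p = 0.00419), again against the floor of 3 counts per library. In pESCs it was lower than in nESCs, with a log2 fold change of −4.61 (SE 0.48, 95% interval −5.71 to −3.51, adjusted p = 0.00117).

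ACVR2 encodes a type II receptor that binds activin directly, and lies at chr15:3828378-3911122. Its level was 6.47, 10.6 and 8.83 FPKM for pXEN lines 1, 2 and 3, 15.4 and 18.1 FPKM in the nESC lines, and 4.32 and 4.58 FPKM in the pESC lines. No line of one type reached a line of another, and the order was nESCs, pXEN cells and pESCs. In pXEN cells ACVR2 was lower than in nESCs (log2 fold change −0.96, SE 0.21, adjusted p = 0.00528) and higher than in pESCs (0.97, SE 0.22, adjusted p = 0.00824). The difference between the ESC types was the widest, at −1.92 in pESCs against nESCs (SE 0.24, adjusted p = 0.000854). Without pESC line 1 the difference between pXEN cells and pESCs was 0.92 with an adjusted p of 0.0625 and was not called.

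ACVR2B encodes the other type II receptor of activin and Nodal and lies at chr13:25421870-25450846. Its level was 51.0, 23.3 and 51.9 FPKM for pXEN lines 1, 2 and 3, 21.1 and 29.8 FPKM in the nESC lines, and 41.4 and 34.1 FPKM in the pESC lines. Lines 1 and 3 were above every ESC line, whereas line 2 lay among the nESC lines. No difference was called, with log2 fold changes of 0.71 in pXEN cells against nESCs (95% interval −0.06 to 1.49, adjusted p = 0.104), 0.16 against pESCs (−0.59 to 0.92, adjusted p = 0.710) and 0.55 in pESCs against nESCs (−0.28 to 1.38, adjusted p = 0.281). Without line 2, ACVR2B was called higher in pXEN cells than in nESCs (1.00, adjusted p = 0.000848) and than in pESCs (0.45, adjusted p = 0.0418), and higher in pESCs than in nESCs (0.55, adjusted p = 0.0258). The call for this gene therefore rests on 1 library.

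LEFTY2 encodes a secreted antagonist of Nodal, and its gene is itself a target of the pathway. It lies at chr10:15935789-15940181. The counts were 0, 4 and 1 for pXEN lines 1, 2 and 3, 0 and 2 for the nESC lines, and 1 and 3 for the pESC lines. Only line 2 exceeded 3 counts. The ratio of normalised counts was 1.83 for pXEN cells over nESCs (95% counting interval 0.300 to 19.3) and 1.01 over pESCs (0.218 to 5.11), so a difference was not detectable at this depth. A neighbouring entry at chr10:15970831-15973899 that has no symbol but the same protein name had 0, 8 and 0 counts in the pXEN lines, 0 and 1 in the nESC lines, and 3 and 3 in the pESC lines, and reads shared between such copies could be split or lost.

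FST encodes follistatin, which binds activin and keeps it from its receptors, and lies at chr16:34778435-34785305. Its level was 61.7, 67.2 and 83.0 FPKM for pXEN lines 1, 2 and 3, 79.8 and 114 FPKM in the nESC lines, and 48.8 and 61.5 FPKM in the pESC lines. The pXEN lines overlapped the nESC lines and lay just above the pESC lines, and FST had the highest FPKM of the 8 genes in every library. Only the difference between the ESC types was called, at −0.83 in pESCs against nESCs (SE 0.22, adjusted p = 0.0211). In pXEN cells FST differed by −0.47 from nESCs (95% interval −0.91 to −0.02, adjusted p = 0.0741) and by 0.36 from pESCs (−0.09 to 0.82, adjusted p = 0.167). The difference from nESCs became a call with upper-quartile scaling (adjusted p = 0.0246), with a replicate block (0.0162) and without pXEN line 3 (0.0438). The median log2 fold change of all tested genes on chromosome 16 was −0.73 in pXEN cells against nESCs and −0.50 in pESCs against nESCs, and FST differed from these medians by 0.27 and −0.33. The call between the ESC types was lost without nESC line 2 (−0.54, adjusted p = 0.128), without pESC line 1 (−0.67, adjusted p = 0.144) and without pESC line 2 (−1.01, adjusted p = 0.0514).

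**Figure D2:**
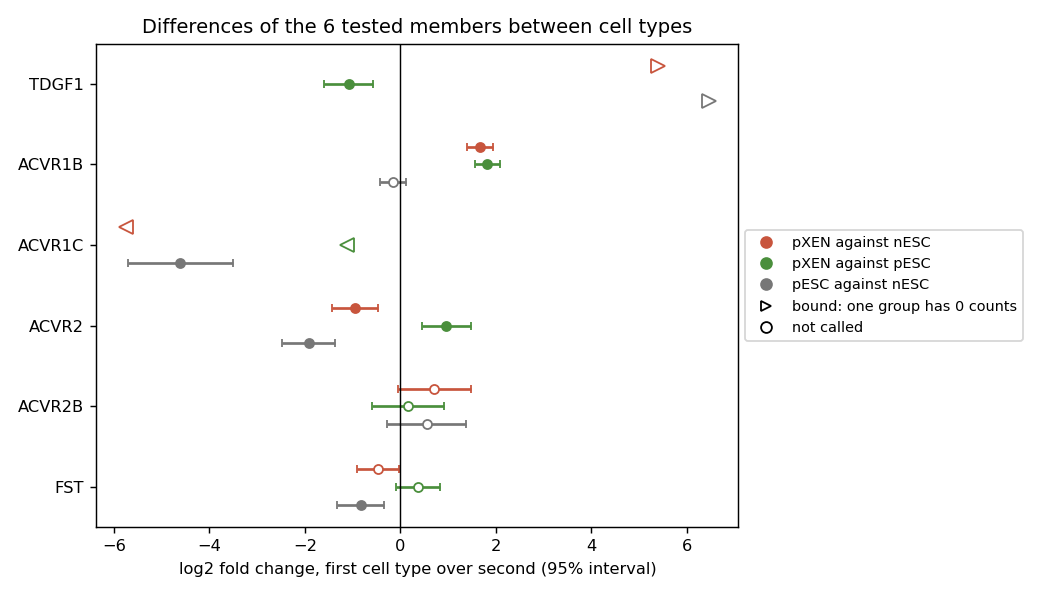
Log2 fold change (x axis, with its 95% interval) of the 6 tested genes (y axis) in the 3 comparisons. Filled circles passed an adjusted p of 0.05, open circles did not, and triangles mark bounds against the floor of 3 counts where 1 cell type had no count. ACVR1B lies to the right for pXEN cells against both ESC types, and ACVR2 lies to the left against nESCs and to the right against pESCs.

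Of the 6 tested genes, TDGF1 and ACVR1B were called higher and ACVR1C and ACVR2 lower in pXEN cells than in nESCs. Among all genes tested, 28.3% were called higher and 26.2% lower in this comparison. Against pESCs, ACVR1B and ACVR2 were called higher and TDGF1 and ACVR1C lower in pXEN cells, where 23.9% of all genes were called higher and 24.4% lower. In pESCs against nESCs, TDGF1 was called higher and ACVR1C, ACVR2 and FST lower, where 19.0% of all genes were called higher and 13.3% lower. With so many genes called, 2 of 6 in each direction is near the background. The median log2 fold change of the 6 genes was 0.12 in pXEN cells against nESCs, 0.26 against pESCs and −0.49 in pESCs against nESCs, while the median of all tested genes lay within 0.0120 of 0 in each. Without pXEN line 2 the counts were 3 higher and 2 lower against each ESC type, and 2 higher and 3 lower in pESCs against nESCs, with ACVR2B added in all 3. Without that line 30.2% of all genes were called higher and 29.6% lower against nESCs, 26.5% and 28.7% against pESCs, and 24.1% and 19.2% in pESCs against nESCs. The comparisons share libraries and are not independent of each other.

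Because FPKM is scaled by gene length, the levels of the receptor genes could also be set against each other within a library. Of the summed FPKM of the type I receptor genes ACVR1B and ACVR1C, ACVR1C made up 0% in the pXEN lines, 45.5% in both nESC lines, and 2.20% and 5.14% in the pESC lines. The nESCs were thus the only cell type of the 3 with similar levels of both type I transcripts. The sum itself was 33.7 ± 1.57 FPKM in pXEN cells (SD, n = 3), 19.4 ± 0.696 in nESCs (SD, n = 2) and 9.93 ± 0.876 in pESCs (SD, n = 2), and the lines of the 3 types did not overlap.

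Of the summed FPKM of the type II receptor genes, ACVR2 made up 11.3%, 31.2% and 14.5% in pXEN lines 1, 2 and 3. It made up 42.1% and 37.7% in the nESC lines, and 9.45% and 11.9% in the pESC lines. ACVR2B had the higher FPKM of the pair in all 7 libraries, from 1.37 times ACVR2 in nESC line 1 to 9.58 times in pESC line 1. Line 2 was nearest to the nESCs in this share, and lines 1 and 3 were nearest to the pESCs. The summed type II FPKM was 57.5, 34.0 and 60.8 in the pXEN lines, 36.5 and 47.9 in the nESC lines, and 45.7 and 38.7 in the pESC lines, so the types overlapped. These shares and sums were not tested.

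**Figure D3:**
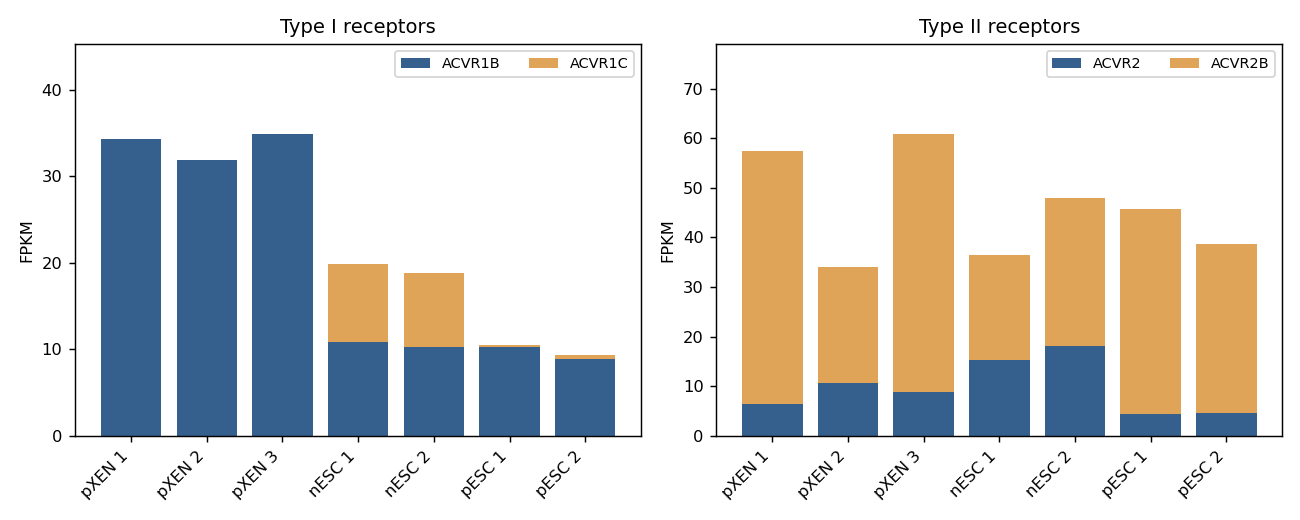
FPKM (y axis) of the type I receptor genes (left) and type II receptor genes (right) in each of the 7 lines (x axis), stacked from 0. The ACVR1C segment is 45.5% of the type I bar in both nESC lines and 0% in the pXEN lines, and ACVR2B is the larger type II segment in every line.

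The other genes of the pathway were taken from a list of 37 genes. They were ligands, processing enzymes, a co-receptor, TGFβ receptors, secreted inhibitors, signal transducers, brakes and target genes. Of these, 29 were found and 27 were tested. In pXEN cells 19 of the 27 were called higher and 4 lower than in nESCs, and 16 were higher and 6 lower than in pESCs. In pESCs 11 were higher and 3 lower than in nESCs. The shares of all genes called were those given above for the 6 tested genes. The count of 11 fell to 5 without nESC line 1, 5 without pESC line 1 and 6 without pESC line 2, where the shares of all genes called higher fell to 12.3%, 12.0% and 12.2%. Without pXEN line 2, 19 were higher and 6 lower against nESCs, 16 and 6 against pESCs, and 16 and 3 in pESCs against nESCs, where the shares of all genes were 30.2% and 29.6%, 26.5% and 28.7%, and 24.1% and 19.2%. The median log2 fold change of the 27 genes was 1.67 in pXEN cells against nESCs, 1.04 against pESCs and 0.75 in pESCs against nESCs. Against both ESC types, 16 of the 27 genes were higher and 4 lower in pXEN cells, where 18.1% of all genes were higher and 15.5% lower against both. The same pXEN libraries enter both comparisons.

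Among the ligands, GDF3, which signals through the same receptors with Cripto, had 15.5, 17.3 and 20.5 FPKM in pXEN lines 1, 2 and 3 and no count in any ESC line. It was at least 78.2-fold higher than in nESCs (adjusted p = 3.5e-05) and at least 86.5-fold higher than in pESCs (adjusted p = 5.2e-05). GDF1, a partner of Nodal, went the other way, with 5.32, 5.53 and 4.94 FPKM in the pXEN lines, 33.9 and 29.6 in the nESC lines, and 33.4 and 31.0 in the pESC lines. Its log2 fold change was −2.60 against either ESC type (adjusted p = 5.5e-06 and 9.4e-06). The deposited table names this entry GDF1, whereas the reference table of gene names pairs its identifier with CERS1, so which of the 2 genes it counts is uncertain. GDF11, a ligand of the same type II receptors, was lower by −1.73 against nESCs and −0.74 against pESCs on the log2 scale (adjusted p = 1.5e-05 and 0.00161). TGFB1 was higher, with 29.7 to 35.9 FPKM in pXEN cells against 0.699 to 2.19 in nESCs and 7.61 to 10.9 in pESCs, and TGFB3 was higher by 2.53 and 2.42 on the log2 scale. GDF3, TGFB1 and TGFB3 were therefore higher, and GDF1 and GDF11 lower, in pXEN cells against both ESC types. TGFB2, named after its values were seen, had 0.507, 2.06 and 0.605 FPKM in the pXEN lines, 2.43 and 0.997 in the nESC lines, and 20.9 and 22.9 in the pESC lines. It was lower in pXEN cells than in pESCs (−4.33, adjusted p = 0.000432). That made 3 of the 6 tested ligands higher and 3 lower against pESCs, where 23.9% of all genes were called higher and 24.4% lower. TGFB2 was not called against nESCs (−0.68, adjusted p = 0.364) except without pXEN line 2 (−1.63, adjusted p = 0.0111).

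The ligands of this family are made as proproteins, and FURIN, which cleaves them, had 373, 303 and 371 FPKM over the 3 pXEN lines. It had 1.45 and 1.14 FPKM in the nESC lines and 48.7 and 60.3 FPKM in the pESC lines. The 3 cell types were far apart, with log2 fold changes of 8.06 in pXEN cells against nESCs (SE 0.22, adjusted p = 3.2e-07), 2.69 against pESCs (SE 0.16, adjusted p = 1.1e-05) and 5.38 in pESCs against nESCs (SE 0.21, adjusted p = 4.9e-06). PCSK6, a second enzyme of this kind, was higher by 2.52 against nESCs (adjusted p = 0.000592) and by 1.04 against pESCs (adjusted p = 0.0273). The latter call was lost without pXEN line 3 (adjusted p = 0.0623), pESC line 1 (0.0904) or pESC line 2 (0.152), and with a replicate block (0.0807).

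TGFBR1, the type I receptor of TGFβ and the third kinase that SB431542 inhibits, had 5.17, 5.95 and 4.85 FPKM in the pXEN lines, 2.60 and 3.37 in the nESC lines, and 4.39 and 4.15 in the pESC lines. It was higher in pXEN cells than in nESCs (0.83, SE 0.17, adjusted p = 0.00416), and 0.33 above pESCs (95% interval −0.06 to 0.71, adjusted p = 0.141), which was not called. The entry used had 300, 403 and 314 counts in the pXEN lines, 186 and 232 in the nESC lines, and 326 and 329 in the pESC lines. A second TGFBR1 entry had 240, 322 and 491, then 183 and 128, then 234 and 238 counts, more than the first in pXEN line 3. The second entry was not tested, so these values describe only part of the TGFBR1 reads. TGFBR3, which presents TGFβ and inhibin, was lower in pXEN cells by −2.48 against nESCs (adjusted p = 0.00102) and −3.58 against pESCs (adjusted p = 0.000194). TGFBR2, the type II receptor of TGFβ, was named after its values were seen and had 0.562, 1.10 and 0.360 FPKM in the pXEN lines, 3.78 and 0.812 in the nESC lines, and 5.58 and 4.52 in the pESC lines. It was lower in pXEN cells than in pESCs (−2.87, adjusted p = 0.00888). Against nESCs its value of −1.75 was not called (adjusted p = 0.0618), but it was without pXEN line 2 (adjusted p = 0.0242) or nESC line 2 (0.0130), with upper-quartile scaling (0.0419) and with DESeq2 (0.0487).

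The transducers SMAD2 and SMAD3 were higher in pXEN cells against both ESC types. SMAD3 had 30.9, 47.5 and 33.9 FPKM in pXEN lines 1, 2 and 3, 7.34 and 10.5 in the nESC lines, and 16.3 and 14.2 in the pESC lines, which gave log2 fold changes of 2.07 and 1.31 (adjusted p = 0.000205 and 0.0022). SMAD2 was higher by 0.84 (adjusted p = 0.00191) and 0.45 (adjusted p = 0.0333), and its call against pESCs was lost without pXEN line 1 (adjusted p = 0.0811), pESC line 1 (0.216) or pESC line 2 (0.0613). SMAD4, the common partner, was 0.39 higher than in nESCs (adjusted p = 0.00863) and differed from pESCs by 0.04 (95% interval −0.18 to 0.26, adjusted p = 0.757). The call against nESCs was lost without nESC line 1 (0.33, adjusted p = 0.0726) and with upper-quartile scaling (0.22, adjusted p = 0.0685). The same scaling ended the call for SMAD2 against pESCs (0.37, adjusted p = 0.0565). FOXH1, the DNA-binding partner of SMAD2 at many Nodal targets, was the transducer that fell, with 3.62, 6.96 and 3.72 FPKM in the pXEN lines, 83.9 and 66.2 in the nESC lines, and 18.1 and 18.4 in the pESC lines. Its log2 fold change was −3.97 against nESCs (SE 0.27, adjusted p = 1.4e-05) and −1.92 against pESCs (SE 0.27, adjusted p = 0.000792).

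Of the 7 brakes that were tested, all 7 were higher in pXEN cells than in nESCs and 6 were higher than in pESCs, where 28.3% and 23.9% of all genes were called higher. Several of the brakes are themselves induced by TGFβ signals. BAMBI, a receptor-like protein without a kinase, had 42.2, 45.7 and 38.2 FPKM in the pXEN lines, 2.07 and 2.35 in the nESC lines, and 13.1 and 14.2 in the pESC lines. SMAD7, which blocks the type I receptor, had 21.0, 24.7 and 20.0 FPKM in the pXEN lines, 1.85 and 2.82 in the nESC lines, and 3.64 and 4.06 in the pESC lines. For both genes every pXEN line was above every ESC line, with log2 fold changes of 4.24 and 1.63 for BAMBI (adjusted p = 9.9e-07 and 4.7e-05) and 3.22 and 2.51 for SMAD7 (adjusted p = 1.3e-05 and 5.3e-05). SKIL, a corepressor of SMADs, was higher by 1.69 and 1.20, TGIF1 by 1.67 and 0.56, LDLRAD4 by 1.46 and 3.38, and SMURF1, a ubiquitin ligase, by 3.27 and 1.56 on the log2 scale, in that order against nESCs and pESCs. Against pESCs the call for TGIF1 was lost without pESC line 2 (adjusted p = 0.135) and that for SMURF1 without pESC line 1 (adjusted p = 0.0704).

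Of the 4 target genes that were tested, 3 were higher in pXEN cells against both ESC types, where 18.1% of all genes were. The mesendoderm gene MIXL1 had 25.7, 11.1 and 24.9 FPKM in pXEN lines 1, 2 and 3 and no count in any ESC line, and was at least 59.9-fold higher than in nESCs and at least 66.2-fold higher than in pESCs (adjusted p = 0.000349 and 0.000423). The organizer gene GSC was counted 140, 52 and 169 times in the pXEN lines, none in the nESC lines, and 2 and 3 in the pESC lines. It was at least 44.8-fold higher than in nESCs (adjusted p = 0.000445), and its ratio of normalised counts over pESCs was 58.6 (95% counting interval 24.9 to 182, adjusted p = 0.000995). EOMES varied most, with 60, 15 and 423 counts in the pXEN lines, none in the nESC lines, and 1 and 0 in the pESC lines. It was at least 60.2-fold higher than in nESCs (adjusted p = 0.0135), and the call was lost when nESC line 1 (adjusted p = 0.0636) or nESC line 2 (0.0603) was left out. Against pESCs the ratio of its counts was 404 (95% counting interval 72.2 to 15995, adjusted p = 0.0169), and that call was lost without pESC line 1 (adjusted p = 0.0902) or pESC line 2 (0.111). With limma's test on log2(FPKM + 1), EOMES was called against neither ESC type (adjusted p = 0.0661 and 0.0748). Most of its reads were in pXEN line 3, and without that line the bound over nESCs was 14.6-fold and the ratio over pESCs was 92.4 (95% counting interval 16.1 to 3699). A second EOMES entry had 19, 16 and 47 counts in the pXEN lines and none in any ESC line.

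**Figure D4:**
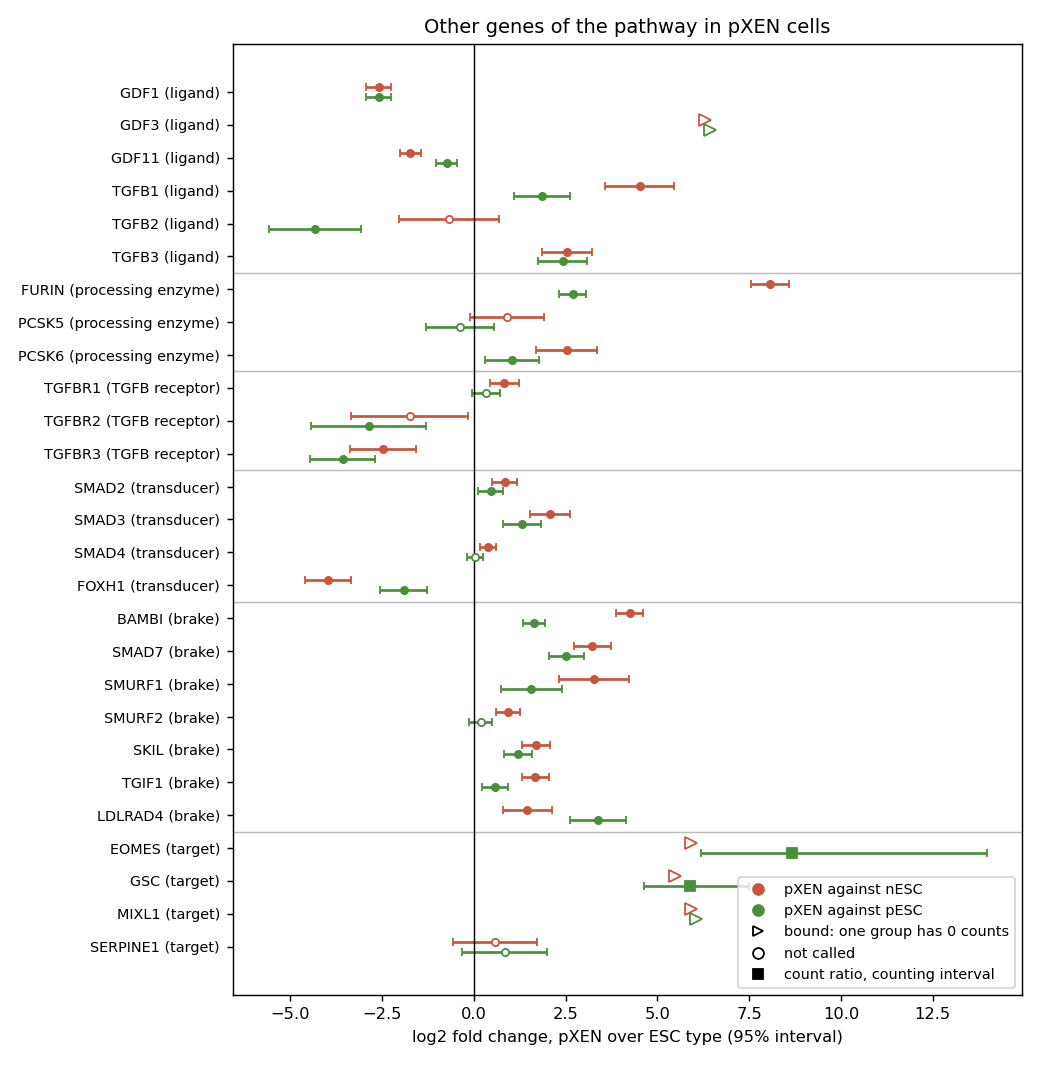
Log2 fold change (x axis) of the 27 other tested pathway genes (y axis, grouped by role) in pXEN cells against nESCs and against pESCs, with 95% intervals. Filled circles passed an adjusted p of 0.05, open circles did not, triangles are bounds against the floor of 3 counts, and squares are ratios of counts with counting intervals. All 7 brakes lie to the right of 0 in both comparisons, and FOXH1, GDF1, GDF11 and TGFBR3 lie to the left.

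The pXEN lines differed from each other in some of these genes. The FPKM of line 2 over the mean of lines 1 and 3 was 0.454 for ACVR2B, 0.814 for TDGF1, 0.922 for ACVR1B, 0.929 for FST and 1.39 for ACVR2. Of these 5 genes ACVR2B was farthest from 1 in line 2, and its largest value among the pXEN lines was 2.23 times its smallest, against 1.09 times for ACVR1B. ACVR2B and TDGF1 lie on chromosome 13, whose genes had a median ratio of 0.735 in line 2, against 1.01 over all genes. That chromosome held 8.11% and 8.17% of the reads of lines 1 and 3, 5.73% of those of line 2 and 5.38% to 5.69% of those of the ESC lines. Its genes had a median log2 fold change in pXEN cells of 0.46 against nESCs and 0.40 against pESCs. The part of the chromosome in the level of ACVR2B was not tested. Of the other pathway genes, the target genes EOMES, GSC and MIXL1 were lower in line 2, at 0.0585, 0.306 and 0.437 of lines 1 and 3, whereas the ligand gene TGFB2 was higher, at 3.71 times.

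**Figure D5:**
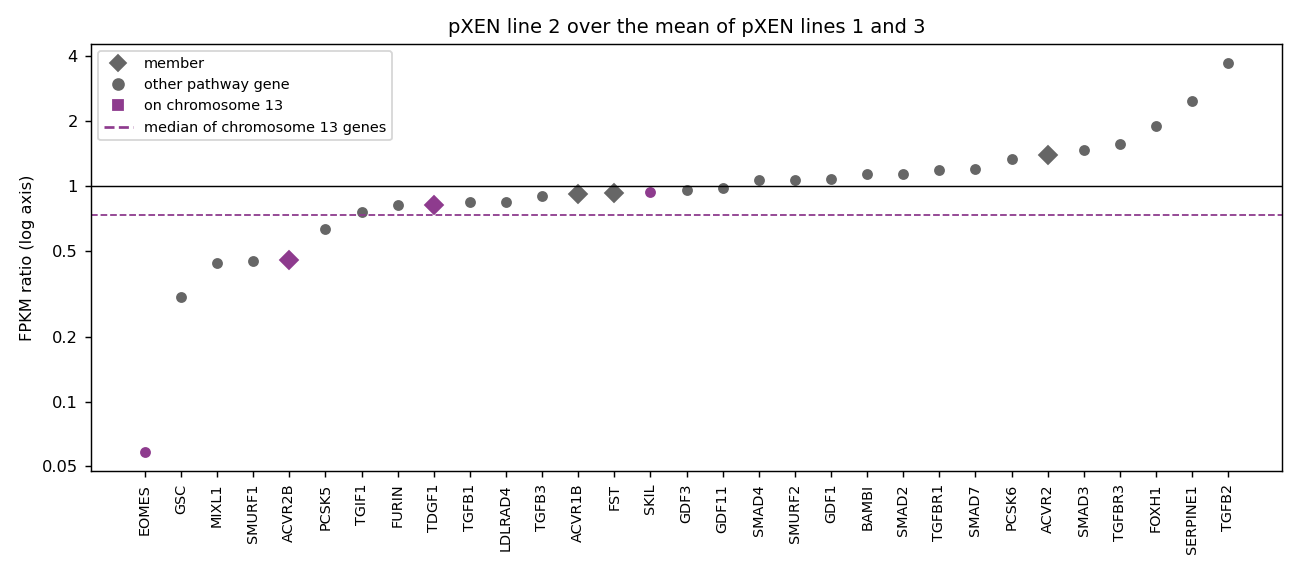
FPKM of pXEN line 2 over the mean of pXEN lines 1 and 3 (y axis, log scale) for 5 of the 6 tested genes (diamonds; ACVR1C had no reads) and the other tested pathway genes except TGFBR2, which had few reads (circles), ordered by ratio along the x axis. Genes on chromosome 13 are purple, and the dashed line marks the median of that chromosome, 0.735. EOMES is lowest, at 0.0585, and ACVR2B is the lowest diamond, at 0.454.

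The 6 tested genes did not follow a common pattern over the 7 libraries. Likeness was measured as the root mean square distance between log2 CPM after each gene was centred on its mean, so that 0 is an identical profile. A prior count of 0.5 was added, and it sets the distances of TDGF1 and ACVR1C, which had libraries without counts. Among the 15 pairs of these genes, ACVR2 and FST were nearest, at 0.464, followed by ACVR2B and FST at 0.676. TDGF1 and ACVR1C were farthest apart, at 7.02. Among 10755 genes with a symbol, the nearest to ACVR1B were IL27RA (0.117), SERPINH1 (0.118) and GPC2 (0.120). The nearest to ACVR2 were TANC2 (0.118), BTG1 (0.213) and MAML2 (0.222), and those to ACVR2B were EPM2AIP1 (0.137), LRCH3 (0.149) and OSBPL11 (0.175). FST was nearest to THAP1 (0.135), INTS8 (0.153) and PRKD3 (0.159). With that prior count, the nearest genes were TRAF3IP2 (0.470), CD79B (0.547) and ARRB1 (0.728) for TDGF1, and ZNF536 (0.601), CALB2 (0.607) and BCAS1 (0.746) for ACVR1C. These distances describe 7 libraries of 3 cell types and carry no test.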

How the data were processed

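RNA-seq libraries were made by the study from rRNA-depleted RNA with a directional kit and sequenced on a NovaSeq platform. The submitters' notes name HISAT2 2.0.5, featureCounts 1.5.0-p3, edgeR 3.22.5 and the pig build Sscrofa10.2. The authors deposited raw read counts per gene and, separately, FPKM per gene, and both were used as deposited. How shared reads were assigned is not given in the sources used here.

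Counts were tested with edgeR 4.0.16 (R 4.3.3): TMM scaling, the filterByExpr filter, 1 quasi-likelihood model of all 7 libraries with cell type as the only term, and Benjamini-Hochberg adjustment over 17447 genes, with calls at an adjusted p below 0.05. FPKM served for levels and shares. Total counts were 10408164 to 12995720 per library, which set the floor of 3 counts. Bounds against groups without counts used that floor per library on the TMM scale, and ratios with few counts have exact Poisson intervals.

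The members were matched by the name in the files. Other genes were matched by Ensembl identifier, and by the name in the files where an identifier had no symbol. GDF1 was matched by its name in the files, although its identifier pairs with another symbol. EOMES, which has no name there, was matched by its protein name. Where several entries carried a symbol, the one with most counts was used. SMAD3 is listed under the name SMAD2 and was matched by its identifier. TGFBR1, EOMES and PCSK6 each have a second entry with fewer counts in total, and that of PCSK6 was not examined. The identifiers do not pair all names, so a gene not found was not analysed here. The members and lists were chosen with earlier results of these data known. All members are named. An item of the pathway list is not reported here. Of the other pathway genes, those called one way against nESCs and pESCs alike, the transducers, TGFBR1 and the secreted inhibitors are named (no other secreted inhibitor on the list was found), and genes that a count or a comparison of lines turns on were named after their values were seen. For likeness, the 3 nearest genes are given.

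Each line gave 1 library, and no source says whether the lines of a type came from separate embryos, so p-values measure the spread between these lines, which may be technical. No libraries were duplicates. The common biological coefficient of variation was 0.223. Alternatives were upper-quartile and DESeq2 scaling, DESeq2 1.42.0, limma 3.58.1 on log2(FPKM + 0.1) and log2(FPKM + 1), other filters, other sets of libraries, a replicate block, and each library left out.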

Additional observations from a re-analysis of the deposited data

How the results depend on the processing

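Of 282 tested log2 fold changes of the members under the alternatives, 267 kept their direction and side of the threshold. With at least 10 counts required in every library, TDGF1 and ACVR1C were removed by construction, which left 1 member higher and 1 lower against nESCs, 0 lower against pESCs and 0 higher in pESCs than in nESCs. That filter left 12261 genes to test, against 17447 in the fit reported. Of these, 3367 were called higher and 3323 lower in pXEN cells than in nESCs (4937 and 4577 in the fit reported). It called 2771 lower in pXEN cells than in pESCs (4261) and 2056 higher in pESCs than in nESCs (3308). Using only the libraries of the ESC types added ACVR2B, for 2 members higher in pESCs. In that setting 3979 of 17447 genes were called higher and 3199 lower in pESCs, against 3308 and 2313 in the fit reported.

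With each library left out, 2 to 3 members were higher and 2 to 3 lower in pXEN cells than in nESCs, 1 to 3 higher and 1 to 2 lower than in pESCs, and 1 to 2 higher and 2 to 3 lower in pESCs than in nESCs. The fewest against pESCs came without pESC line 1 (1 higher) and pESC line 2 (1 lower). For the other pathway genes the ranges were 17 to 19 higher and 4 to 6 lower, 12 to 16 higher and 6 lower, and 5 to 16 higher and 3 lower, where pESC against nESC counts fell to 5 without nESC line 1 or pESC line 1 and to 6 without pESC line 2. For all genes they were 3914 to 5262 higher and 3459 to 5168 lower, 2807 to 4616 and 2878 to 5009, and 2096 to 4209 and 970 to 3351.

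FST against nESCs turned from −0.47 to 0.27 after subtraction of the median of its chromosome. ACVR2B against pESCs, 0.16 in the fit reported, was −0.23 after that subtraction and ranged from −0.014 without pXEN line 3 to 0.45 without pXEN line 2. SMAD4 against pESCs was −0.044 with upper-quartile scaling. In pESCs against nESCs, GDF1 was −0.084 with upper-quartile scaling and between −0.088 and 0.10 with each library left out, and TGFB3 was between −0.12 and 0.32. TGFB2 against nESCs, −0.68 in the fit reported, was 0.096 without nESC line 1 and −1.63 without pXEN line 2, where it became a call. None of the tested values that had the changed sign was itself called, and the cause was not tested. ACVR2B against pESCs kept its sign without pXEN line 2 and was called there (adjusted p = 0.0418). FST against nESCs became a call with upper-quartile scaling (adjusted p = 0.0246), without pXEN line 3 (0.0438) and without nESC line 1 (0.0303). Upper-quartile scaling moved the median of all genes by −0.16 against nESCs on the log2 scale. It called 4348 of all genes higher and 5621 lower in pXEN cells than in nESCs, and 3049 higher and 2882 lower in pESCs than in nESCs (4937 and 4577, and 3308 and 2313, in the fit reported).

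Replicate numbers name the lines. The deviations of same-numbered libraries from the means of their types correlated between −0.0758 and 0.162 over 9685 genes. With 2 lines in each ESC type, their deviations are equal and opposite, so these values cannot show whether the numbers pair the samples. With the replicate number as a block, FST was called lower in pXEN cells than in nESCs (−0.57, adjusted p = 0.0162), the calls for PCSK6 against pESCs (1.00, adjusted p = 0.0807) and SMAD4 in pESCs against nESCs (0.35, adjusted p = 0.0689) were lost, no other call changed among the members, the pathway genes described, or INHBE, TGFB2 and TGFBR2, whose alternatives were added after seeing the data, and ACVR2B against pESCs was −0.052 (adjusted p = 0.920). With it 4447 of all genes were higher and 3827 lower against nESCs, 3546 and 3447 against pESCs, and 3056 and 1985 in pESCs against nESCs. Depth limits INHBA and LEFTY2, which the filter on low counts kept out of the fit reported. Without that filter 8 members were tested, and 2 were called higher and 2 lower in pXEN cells than in nESCs. Of all 23576 genes tested that way, 5004 were called higher and 4574 lower.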

Other observations

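INHBE, which encodes a further activin subunit (βE) and was not on either list, was picked after its values were seen, because the activin ligand genes on the lists had few reads. It lies at chr5:24809427-24810713 and was counted 24, 8 and 30 times in the pXEN lines, 4 and 0 times in the nESC lines, and 89 and 105 times in the pESC lines. In FPKM these were 2.31, 0.658 and 2.58, then 0.312 and 0, then 6.67 and 7.37. The 3 cell types did not overlap. Its entry overlaps 2 genes with 980 counts together, so the values are uncertain, and the folds over nESCs rest on 4 counts. INHBE was higher in pXEN cells than in nESCs (log2 fold change 3.45, SE 0.96, adjusted p = 0.0162, edgeR) and lower than in pESCs (−1.92, SE 0.65, adjusted p = 0.0400), and higher in pESCs than in nESCs (5.37, SE 0.97, adjusted p = 0.00464). The call against nESCs was lost without nESC line 2 (adjusted p = 0.0713), and that against pESCs was lost without pXEN line 1 (0.0664), pESC line 1 (0.124) or pESC line 2 (0.157), and with limma's test on log2(FPKM + 0.1) (0.0591). INHA, the inhibin α subunit gene, was counted 3, 7 and 1 times in the pXEN lines, 2 and 3 in the nESC lines, and 9 and 1 in the pESC lines, and was not tested. Of the 4 trophoblast markers found, TFAP2C had 40.4 and 37.0 FPKM in the pESC lines and at most 0.505 FPKM in the other libraries. CDX2 had 0.855 and 1.55 FPKM and GATA3 3.35 and 2.46 FPKM in the pESC lines, and ELF5 had no count there and 10, 3 and 6 counts in the pXEN lines.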
